A study of Mus musculus with 96 samples.

Results

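The 10 genes described here encode proteins that modify, fold, trim and crosslink collagen, and they were taken by symbol from a count table of 41575 gene symbols, all 10 of which were found. A newly made collagen chain is hydroxylated on proline and lysine in the endoplasmic reticulum, folds into a triple helix with the help of chaperones, is secreted, loses its propeptides and is then crosslinked into fibrils outside the cell. P4ha1 and P4ha2 are catalytic subunits of prolyl 4-hydroxylase and P4hb (protein disulfide isomerase) is its partner subunit. Plod1 and Plod2 are lysyl hydroxylases, Serpinh1 (HSP47) is the collagen-specific chaperone, and Sparc is a secreted collagen-binding glycoprotein. Bmp1 is the protease that removes the C-terminal propeptide of fibrillar procollagens, Pcolce enhances that cleavage, and Lox is the oxidase that starts the crosslinks. These steps are best known from bone, tendon and skin, where fibrillar collagen is the main product.

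RNA was sequenced in bulk from 16 tissues of 3-week-old mice that were either wild type (WT) or Scx-/-, without the basic helix-loop-helix transcription factor Scleraxis (Scx), which is known for its part in tendon formation. There were 3 libraries for each tissue and genotype and 96 in all, from musculoskeletal tissues (bone, cartilage, muscle), brain (cortex, hippocampus), the gut and its glands (stomach, intestine, rectum, liver), heart, lung, kidney, bladder, spleen, and samples labelled adipose and vascular. No source used here gives the strain or how the Scx allele was made, and no other allele or treatment is named for either group. In such bulk samples, fewer cells of a type and less RNA per cell cannot be told apart.

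The libraries held 11244 to 1658192 counts (median 251640), and 8 of them held fewer than 50000. Levels are given as CPM (a gene's count scaled to a common library total) and rest on counts that are 3′-enriched by the study's methods, whereas the series' own text names a smart-seq2 based method, so how far gene length enters is not known. Levels were therefore compared between tissues and genotypes for 1 gene at a time, and where counts of 2 genes are set as a share or ratio, that value depends on their lengths and is read across tissues and genotypes only. Scx had counts in 12 of 48 WT libraries and in 1 of 48 Scx-/- libraries, which is the cartilage library labelled Scx-/- replicate 1, with 9 counts. Sex-linked counts went against the other libraries of the same genotype and replicate number in 4 libraries, namely those labelled cartilage WT replicate 1, cartilage Scx-/- replicate 2 and bone Scx-/- replicates 1 and 2. The 3 cartilage libraries named here were therefore left out in second fits of the cartilage genotype difference and of the additive model. The comparisons between tissues and the interaction test were not refitted without these 3 libraries. The bone pair changes no group. Defining markers went against some labels. The 5 pancreatic acinar genes summed to 236631 to 324651 CPM in the adipose-labelled libraries, where the 5 adipocyte markers summed to at most 149 CPM and Lep was at 0. In the vascular samples 4 brown fat genes summed to 3499 to 13148 CPM, and in the cartilage libraries 4 skeletal muscle genes summed to 79917 to 105815 CPM.

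By mean CPM, 8 of the 10 genes had their highest level in bone. By mean log2(CPM + 1), which weighs single high libraries less, 4 did (Serpinh1, Sparc, Pcolce and Lox), while P4ha1 was highest in cortex, P4ha2 in stomach, Plod2 in cartilage and Bmp1 in liver. In bone 7 of the 9 genes that could be tested were higher than in the mean of the 15 other tissues. The 7 were P4ha2, Plod2, Serpinh1, Sparc, Pcolce, Bmp1 and Lox, and the same 7 were higher in cartilage (edgeR's quasi-likelihood test over all 96 libraries, Benjamini-Hochberg adjusted p under 0.05). Of all 13459 genes tested, 5.54% were higher in bone and 10.9% in cartilage by the same rule. Over the 16 tissues, 39 pairs of a gene and a tissue were higher and 23 were lower, beside 14.9% of all pairs called higher and 1.45% called lower. In bladder 5 of the 9 genes were higher (Plod2, Serpinh1, Sparc, Pcolce and Lox), beside 20.4% of all genes. The fitted size of such a difference depends on the prior count for any gene that a group lists at 0, so sizes are given for Serpinh1, Sparc, Pcolce and P4hb only. For such genes some contrasts also had an SE too large for any call, and a missing call there says nothing about the level. These contrasts stay among the pairs counted as tested.

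**Figure D1:**
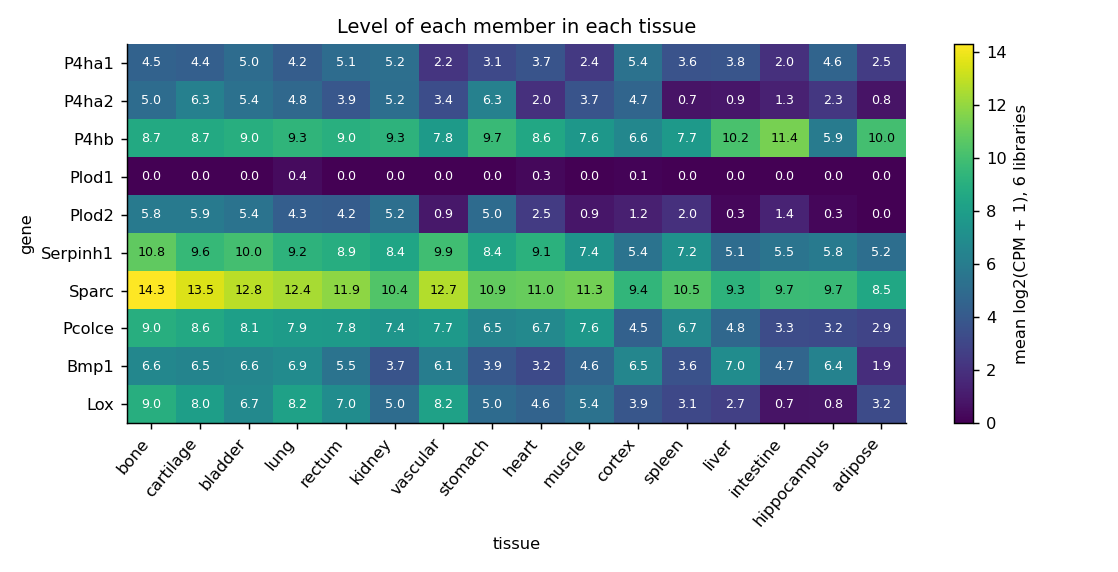
Heat map of the mean log2(CPM + 1) over the 6 libraries of each tissue (columns) for each of the 10 genes (rows), with the value in each cell and the colour scale at the right. Rows are to be read along the tissues and not against each other: Sparc, Serpinh1, Pcolce and Lox are highest in bone, P4hb is highest in intestine, and Plod1 is at or near 0 in all 16 tissues.

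Of the prolyl hydroxylase subunits, P4ha1 (chromosome 10, 59323296 to 59373304, GRCm38) was sparse everywhere. It had 1205 counts in 74 of 96 libraries, and its mean ran from 8.82 ± 9.18 CPM in muscle (SD, n = 6) to 126 ± 176 CPM in bone. The bone mean rested on 2 of the WT libraries: the 6 bone libraries ran from 0 to 424 CPM with a median of 34.7 CPM. P4ha1 was called higher or lower in none of the 16 tissues, with an adjusted p of 0.344 in bone and 0.0702 in cartilage. Its fitted SEs were 95077 in stomach and 565406 in muscle, so it could not be called there.

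P4ha2 (chromosome 11, 54100095 to 54131665) had 1235 counts in 64 libraries. It was called higher in bone, cartilage, stomach and muscle. The 6 stomach libraries held 41.9 to 184 CPM (median 66.9 CPM) and the 6 cartilage libraries 21.8 to 169 CPM (median 95.3 CPM), while in liver, adipose, spleen and intestine the median was 0 CPM.

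Because both genes are read in the same library, the share of P4ha1 in their summed counts needs no scaling, although it still depends on how well the counting catches each transcript. P4ha1 took 13.1% of 245 counts in stomach (95% exact binomial interval 9.11% to 17.9%) and 22.9% of 166 counts in muscle (16.7% to 30%). It took 58.8% of 461 counts in cortex (54.1% to 63.3%), 65.7% of 350 counts in kidney (60.5% to 70.7%) and 92.2% of 51 counts in liver (81.1% to 97.8%). In bone the share was 46.3%, in cartilage 42.9% and in bladder 37.1%. These shares pool the 2 genotypes, whose own shares were apart in some tissues: 71.6% in WT and 45.6% in Scx-/- kidney, 62.5% and 22.2% in bone, and 29.6% and 55.2% in bladder, so the order of the tissues depends on the pooling. These intervals cover counting error only, and single libraries spread far more widely, with a mean of 14.3% ± 13.2 over the 6 stomach libraries and 52.7% ± 25.1 over the 6 kidney libraries.

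**Figure D2:**
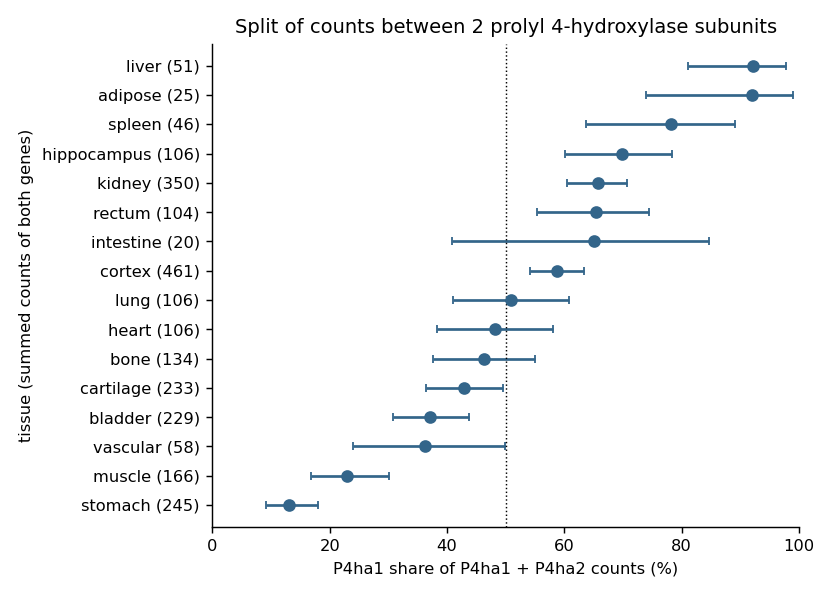
P4ha1 share of the summed P4ha1 and P4ha2 counts (percent, horizontal axis) pooled over the 6 libraries of each tissue, with bars for the 95% exact binomial interval, the summed counts after each tissue name and a dotted line at 50%. Stomach and muscle lie lowest at 13.1% and 22.9%, and liver and adipose lie highest at 92.2% and 92%.

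P4hb (chromosome 11, 120560298 to 120573253) is also a general disulfide isomerase of the endoplasmic reticulum, and it had another pattern. It was present in all 96 libraries and was highest in intestine, at 1366 to 4764 CPM (median 2409.8 CPM), followed by liver at 963 to 1503 CPM and adipose-labelled libraries at 785 to 1344 CPM. On the log2 scale it was higher than in the mean of the other tissues by 2.56 in adipose, 2.16 in liver, 2.10 in intestine and 1.06 in stomach. It was lower in hippocampus (−2.88), cortex (−2.14), vascular (−1.20) and spleen (−1.08). Bone, with 201 to 1049 CPM, did not pass the test for this subunit.

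The lysyl hydroxylase Plod1 (chromosome 4, 147909753 to 147936767) was listed with 3 counts in all, 1 each in a lung, a heart and a cortex library, and was left out of the tests across tissues. Whether this reflects the transcript or the counting was not tested. Plod2 (chromosome 9, 92542223 to 92608428) had 912 counts in 56 libraries and was called higher in bone, cartilage, kidney, bladder and stomach. The 6 cartilage libraries ran from 0 to 223 CPM (median 119.6 CPM), the 6 kidney libraries from 0 to 125 CPM (median 65.1 CPM) and 5 of the 6 bladder libraries from 18.7 to 49.3 CPM, with Scx-/- replicate 3 above them. In adipose-labelled libraries it was listed at 0 throughout, and in liver and hippocampus 1 count was found in each. Plod2 overlaps Gm38391 on the other strand, and since the strand setting of the counting is not given, reads of the 2 genes cannot be told apart.

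Serpinh1 (chromosome 7, 99345376 to 99353239, minus strand) had counts in 95 of 96 libraries. The 6 bone libraries held 989.8 to 2828 CPM (median 1881 CPM), the 6 bladder libraries 580.2 to 1946 CPM (median 904 CPM) and the 6 vascular libraries 622 to 1533 CPM (median 1023 CPM). It was higher than in the mean of the other tissues by 2.65 on the log2 scale in bone, 2.10 in cartilage, 1.94 in bladder, 1.84 in vascular, 1.04 in heart and 0.85 in lung. It was lower in cortex (−2.64), intestine (−2.50), hippocampus (−2.47), liver (−2.25), adipose (−1.34) and spleen (−0.84). Cortex libraries held 32.4 to 52.5 CPM and liver libraries 13.6 to 70.6 CPM.

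Sparc (chromosome 11, 55394500 to 55423183) was present in all 96 libraries, from 132 to 29182 CPM. Bone held 11592 to 29182 CPM (median 20586 CPM), cartilage 6340.2 to 16584 CPM and bladder 4666 to 11827 CPM, against 132 to 732 CPM in the adipose-labelled libraries and 555 to 755 CPM in liver. The difference from the mean of the other tissues was 3.06 in bone, 2.68 in cartilage, 1.58 in bladder, 1.38 in vascular, 0.87 in lung and 0.69 in muscle on the log2 scale. Sparc was called lower in 7 tissues, from −1.96 in intestine to −0.75 in spleen.

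Pcolce (chromosome 5, 137605103 to 137613784, minus strand) had counts in 90 libraries. Bone libraries held 47.3 to 2376 CPM (median 711 CPM), cartilage 193 to 843 CPM, bladder 147 to 727 CPM and muscle 82.0 to 363 CPM. It was higher by 2.58 in bone, 2.20 in cartilage, 1.69 in muscle and 1.20 in bladder, and lower by the test in hippocampus (−2.96), adipose (−2.30), cortex (−2.28), intestine (−1.55) and liver (−1.37). Its annotated span overlaps Fbxo24 on the same strand and Gm36266 on the other strand, so reads could be shared with these genes.

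The procollagen protease Bmp1 (chromosome 14, 70474558 to 70520234) had its highest mean CPM in bone and its lowest in adipose, a ratio of 31.8. For Pcolce, its enhancer, the ratio of the same tissues was 86.8. Bmp1 was called higher in bone (5 of 6 libraries above 0, median 201 CPM), cartilage (median 133 CPM), liver (88.2 to 168 CPM) and cortex (61.6 to 168 CPM), and lower in none. In kidney, stomach and spleen its fitted SEs were 540194, 150408 and 123996, so it could not be called lower there. Liver and cortex, where Pcolce was called lower, were thus among the 4 tissues in which Bmp1 was called higher.

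Lox (chromosome 18, 52516067 to 52529867) was called higher in bone, cartilage, lung, vascular, rectum and bladder, and lower in intestine. Bone libraries held 145 to 1255 CPM (median 607 CPM), lung 96.5 to 556 CPM (median 341 CPM) and vascular 149 to 655 CPM (median 286 CPM). In hippocampus and intestine the median was 0 CPM. Lox overlaps AC161119.1 on the other strand.

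Neighbouring tissues in the order of levels were not told apart. Among the 150 pairs of neighbouring tissues, none differed after adjustment by an exact permutation test of 6 against 6 libraries (two-sided), and 10 had an unadjusted p under 0.05. This test cannot give a p below 0.00216, so with 150 pairs no single pair could pass the adjustment unless several reached that p together. The smallest p, 0.00433, separated P4hb in intestine from P4hb in liver.

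The profile of a gene over the 32 groups (each tissue and genotype, mean log2(CPM + 1)) was compared with those of 8194 genes with a mean of at least 20 CPM. These correlations are descriptions only, since the 32 groups share libraries, depth and tissue composition. Serpinh1 was most like Mgp (r = 0.91), Sparc (r = 0.90) and Fstl1 (r = 0.89). Sparc was most like the 2 chains of type I collagen, Col1a2 (r = 0.93) and Col1a1 (r = 0.90), followed by Serpinh1. Pcolce was most like Serpinh1 (r = 0.88), Ppic and Hspg2 (r = 0.87 each), and Lox was most like Cyr61, Timp1 (r = 0.87 each) and Ckap4 (r = 0.86). The enzymes of hydroxylation had other neighbours: P4ha2 was most like Unc5b (r = 0.83), Igfbp5 and Gas6, Plod2 like Itpripl2 (r = 0.79), Col27a1 and Loxl2, and P4hb like Anxa4, Krt8 (r = 0.75 each) and Rrbp1. P4ha1 and Bmp1 had looser neighbours, Fam195b (r = 0.71), Dhps and Itm2c for P4ha1 and Plpp3 (r = 0.70), Ptprd and Qpct for Bmp1. With Col1a1 itself, r was 0.80 for Serpinh1, 0.78 for Lox, 0.76 for Pcolce, 0.65 for Plod2 and 0.54 for P4ha2, against 0.19 for Bmp1, 0.15 for P4hb and −0.02 for P4ha1. For Plod1, with 3 counts, no profile is given.

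The comparison of Scx-/- with WT asked which tissues change when Scx is absent. Serpinh1 and Pcolce had lower mean levels in Scx-/- libraries in 15 of 16 tissues each, and Sparc in 13, by mean CPM. The fitted fold changes were negative in 14, 14 and 12 tissues. At the thresholds used by the study, an unadjusted p under 0.05 with a change of more than 2-fold (an absolute log2 fold change above 1), 11 of the 146 tested pairs of a gene and a tissue were called lower and 0 were called higher. Of the 11, 6 were Serpinh1, 3 were Pcolce, 1 was P4ha2 and 1 was Lox. Over all genes and tissues 3.71% of pairs were called in either direction and 1.85% were called lower. At an adjusted p under 0.05, 4 of the 146 were called (Serpinh1 in bladder and kidney, Sparc and Pcolce in bladder), beside 0.0914% of all pairs. The 3 Scx-/- libraries all lay below the 3 WT libraries in 19 of the 146 pairs, beside 3.86% of all pairs, and all above them in 4, beside 4.11%. The median log2 fold change (Scx-/- over WT) was −0.86 for Serpinh1, −0.85 for Pcolce, −0.28 for Sparc and −0.02 for P4hb, and −0.39 over the 146 pairs. With a group at 0 set at its bound (3 counts over its pooled libraries, against the pooled level of the other genotype), and the 9 pairs without a bound left out, that last median was also −0.39. Serpinh1 had been named by the study from these libraries as lower in muscle and heart, so its direction there is not independent of that choice.

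**Figure D3:**
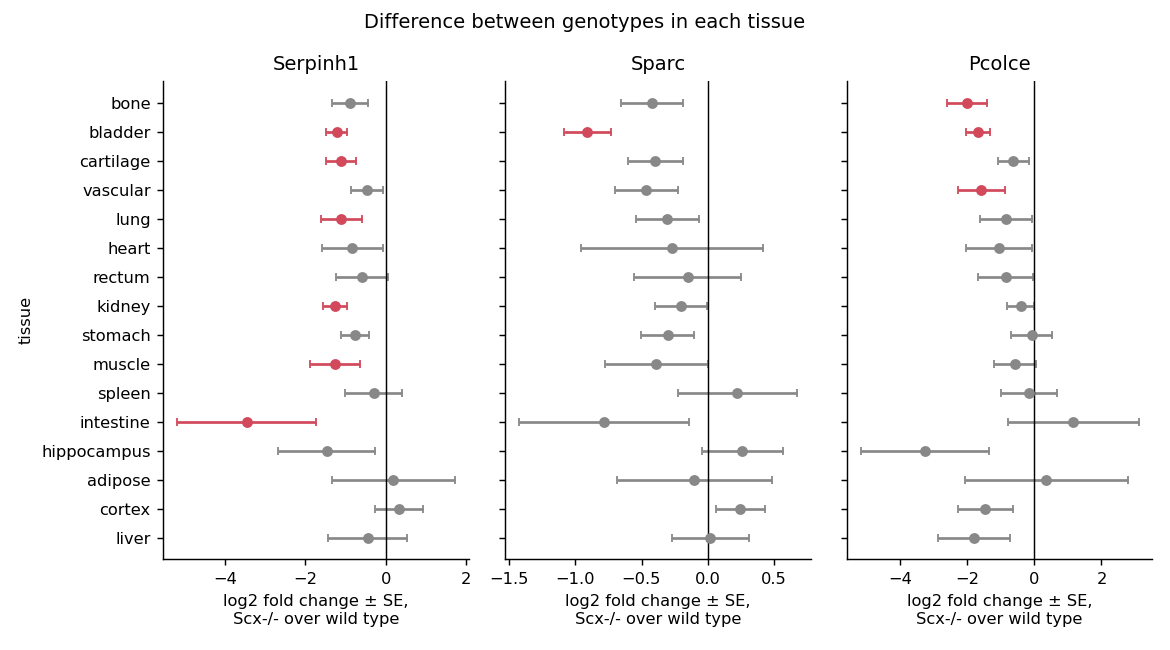
Log2 fold change of Scx-/- over WT (horizontal axis, with a scale of its own in each panel; bars are the SE) of Serpinh1, Sparc and Pcolce in each of the 16 tissues, with red points for those called by either rule and grey points for the rest. The 10 red points, 6 of Serpinh1, 1 of Sparc and 3 of Pcolce, all lie below 0.

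In the bladder, Serpinh1, Sparc and Pcolce were all lower without Scx. Serpinh1 was 1015, 1772 and 1946 CPM in WT replicates 1 to 3 and 744, 793 and 580.2 CPM in Scx-/- replicates 1 to 3. Pcolce was 338, 389 and 727 CPM in WT and 169.7, 147 and 160.5 CPM in Scx-/-. Sparc was 7501, 10671 and 11827 CPM in WT and 4666, 5424 and 6719.9 CPM in Scx-/-. For each of the 3 genes the highest Scx-/- library was below the lowest WT library, as for 786 of the 15160 genes tested in bladder. The log2 fold changes were −1.22 ± 0.26 for Serpinh1 (SE, adjusted p = 0.00255), −1.67 ± 0.36 for Pcolce (adjusted p = 0.0045) and −0.91 ± 0.18 for Sparc (adjusted p = 0.000579), the last being a change of less than 2-fold. In bladder 1.95% of 15160 genes were called lower at the study's thresholds and 0.112% were called at an adjusted p, and the median over all genes was −0.14. Over the alternatives the adjusted p ran from 0.000843 to 1 for Serpinh1, from 0.00266 to 0.934 for Pcolce and from 6.75e-06 to 1 for Sparc. All 3 genes lost the adjusted call under edgeR's filter for low counts and in a joint fit of all 32 groups. Pcolce lost it without WT replicate 3 (adjusted p = 0.750), and Serpinh1 without WT replicate 2 (0.108), WT replicate 3 (0.165) or Scx-/- replicate 3 (0.112), while the thresholds of the study were passed by Serpinh1 and Pcolce in each of these fits. Markers of other cells moved with these genes: 5 fibroblast genes summed to 6088 to 7988 CPM in WT and 5168 to 6049 CPM in Scx-/-, and 4 tenocyte genes to 71.4 to 176 CPM and 6.24 to 49.4 CPM. The 5 osteoblast genes, which include Col1a1, summed to 9317 to 14889 CPM and 5684 to 7094 CPM. In the other direction, and also without overlap, 3 hepatocyte genes summed to 62.5 to 172 CPM in WT and 354 to 3842 CPM in Scx-/-, 3 colonocyte genes to 17.8 to 57.8 CPM and 65.5 to 148 CPM, and 4 cardiomyocyte genes to 0 to 13.6 CPM and 19.4 to 41.2 CPM. The part of these markers in the result was not tested.

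In the kidney, Serpinh1 was 422, 489.8 and 639.7 CPM in WT and 275, 212 and 202 CPM in Scx-/-. The Scx-/- libraries all lay below WT, as they did for 1127 of the 15377 genes tested there. The log2 fold change was −1.26 ± 0.30 (adjusted p = 0.0175), in a tissue where 2.69% of genes were called lower, 0.195% were called at an adjusted p and the median over all genes was −0.28. The 5 fibroblast genes summed to 232 to 473 CPM in WT and 208 to 482 CPM in Scx-/- kidney, so the 2 ranges overlapped. Without overlap, 3 kidney tubule genes summed to 21068 to 31673 CPM in WT and 14723 to 17472 CPM in Scx-/-, and 3 B cell genes to 60.1 to 69.9 CPM and 6.14 to 57.7 CPM, and 5 myeloid genes to 5.95 to 10.8 CPM and 0 to 4.47 CPM; their part in the result was not tested. The adjusted p ran from 0.0127 to 1 over the alternatives, and it was above 0.05 with filterByExpr (0.285), RLE scaling (0.0510), DESeq2 (0.0687) and in the joint fit, and without WT replicate 2 (0.109), WT replicate 3 (0.502), Scx-/- replicate 2 (0.0916) or Scx-/- replicate 3 (0.0917). Pcolce, at 165, 186 and 228 CPM in WT kidney and 143, 184 and 140.2 CPM in Scx-/- kidney, overlapped between genotypes (log2 fold change −0.41 ± 0.39).

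In bone, Pcolce passed the thresholds of the study and Serpinh1 did not. Pcolce was 823, 1255 and 2376 CPM in WT and 599, 233 and 47.3 CPM in Scx-/-, a log2 fold change of −2.0 ± 0.60 (adjusted p = 0.636). Serpinh1 was 2228, 2828 and 2609.8 CPM in WT and 1534, 989.8 and 1230.1 CPM in Scx-/-, a log2 fold change of −0.89 ± 0.45. Sparc was 26047, 29182 and 20708 CPM in WT and 20464, 18677 and 11592 CPM in Scx-/- (−0.42 ± 0.23). For each of the 3 genes the Scx-/- libraries all lay below WT, as they did for 362 of the 12344 genes tested in bone. Of all genes in bone 2.07% were called lower. Without the 2 bone libraries under 50000 counts (replicate 3 of each genotype) the Pcolce value was −1.01 and was not called. The value was −1.49 without WT replicate 3 and also without Scx-/- replicate 3, and −3.14 without Scx-/- replicate 1. Tenocyte markers summed to 953 to 2228 CPM in WT bone and 451 to 915 CPM in Scx-/- bone, and 3 kidney tubule genes to 407 to 1288 CPM and 79 to 166 CPM. In the other direction, 5 adipocyte genes summed to 43.3 to 382 CPM in WT and 531 to 709.7 CPM in Scx-/- bone, and 4 brown fat genes to 26 to 276 CPM and 435 to 591 CPM, and 3 colonocyte genes to 0 to 21.2 CPM and 71.0 to 483 CPM. The bone libraries of the 2 genotypes thus held different amounts of markers of other tissues, and their part in these results was not tested.

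The 4 other tissues in which Serpinh1 was called were cartilage, lung, muscle and intestine. In muscle it was 65.8, 426 and 418 CPM in WT and 102, 126 and 124 CPM in Scx-/-, so WT replicate 1, with 30409 counts in all, lay below the 3 Scx-/- libraries. The log2 fold change in muscle was −1.27 ± 0.62 (adjusted p = 0.771, 2.44% of genes called lower). It was −1.71 without WT replicate 1, and it was not called without WT replicate 2 (−0.99) or 3 (−0.94) or without Scx-/- replicate 1 (−1.20), 2 (−1.30) or 3 (−1.27). The lowest adjusted p over the alternatives was 0.000708. Tenocyte markers summed to 126 to 631 CPM in WT and 27.3 to 104 CPM in Scx-/- muscle. The 5 osteoblast genes, Col1a1 among them, summed to 4016 to 6935 CPM and 1316 to 2685 CPM, and 3 enterocyte genes to 0 and 1.15 to 44.0 CPM. None of these lists overlapped, and their part was not tested. In lung it was 585, 1690.5 and 902 CPM in WT and 521, 255 and 401 CPM in Scx-/-, with no overlap, although WT replicate 1 lay close to Scx-/- replicate 1. That gave −1.10 ± 0.51 (adjusted p = 0.741, 1.46% of genes called lower), and the call was lost without WT replicate 2 (−0.74) and without Scx-/- replicate 2 (−0.94) or 3 (−1.10), without libraries under 50000 counts and in the joint fit. In the same lung libraries 3 epithelial genes summed to 56878 to 70665 CPM in WT and 78284 to 92432 CPM in Scx-/-, and 8 collagen breakdown genes to 1342 to 1626 CPM and 1099 to 1141 CPM, both without overlap, and their part was not tested.

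In the cartilage libraries Serpinh1 was 271, 2229.7 and 1820.3 CPM in those labelled WT and 963, 385 and 547 CPM in those labelled Scx-/-. The library labelled WT replicate 1, which is 1 of the 3 that go against their labels, was the lowest of the 6. The log2 fold change was −1.11 ± 0.37 (adjusted p = 0.769, 1.46% of genes called lower) with all libraries and −1.78 without the 3, which leaves 2 libraries labelled WT against 1 labelled Scx-/- and assumes that the lone library varies like the others. It was −1.58 (adjusted p = 0.00872) when only the library labelled WT replicate 1 was left out. It was not called without the library labelled WT replicate 2 (−0.68), WT replicate 3 (−0.89) or Scx-/- replicate 2 (−0.85), nor with filterByExpr or DESeq2. In cartilage 5 pancreatic acinar genes summed to 250.2 to 702 CPM in WT and 1437 to 1956 CPM in Scx-/-, without overlap, and their part was not tested. In intestine Serpinh1 was 77.5, 424 and 202 CPM in WT and 18.2, 66.6 and 0 CPM in Scx-/-, from 103 and 3 counts in all. The intestine value of −3.46 ± 1.73 (adjusted p = 0.652) stood beside a median of −1.63 over all genes and 2.96% of genes called lower. It was not called without any 1 of the WT libraries (−3.83, −2.65 and −3.63) or without Scx-/- replicate 1 (−3.36) or 3 (−2.97), nor with RLE scaling or library totals. In intestine 4 neuron genes summed to 0 to 39.3 CPM in WT and 72.8 to 113 CPM in Scx-/-, 3 epidermis genes to 0 and 33.3 to 377 CPM, and 5 myeloid genes to 0 to 23.3 CPM and 33.3 to 37.7 CPM, without overlap, and their part was not tested.

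Serpinh1 did not pass these thresholds in the other tissues. In heart it was 409, 2134 and 625 CPM in WT and 475, 275 and 409 CPM in Scx-/-, where the high WT library was the one with 11244 counts, and the log2 fold change was −0.83 ± 0.76. In hippocampus the groups did not overlap, at 135, 70.4 and 119 CPM in WT and 60, 17.6 and 23.5 CPM in Scx-/- (−1.47 ± 1.21). In the same libraries 5 vessel wall genes summed to 103 to 236 CPM in WT and 39.2 to 80.1 CPM in Scx-/-. The 5 osteoblast genes, Col1a1 among them, summed to 90.9 to 173 CPM and 27.4 to 68.3 CPM, and 4 brown fat genes to 16.2 to 92.8 CPM and 3.92 to 6.21 CPM. None of these lists overlapped, and their part was not tested. Mean CPM was higher in Scx-/- in cortex alone, at 48.8, 32.7 and 32.4 CPM in WT and 52.5, 45.5 and 44.4 CPM in Scx-/- (0.33 ± 0.60), while the fitted fold change was also positive in the adipose-labelled libraries (0.19 ± 1.54).

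**Figure D4:**
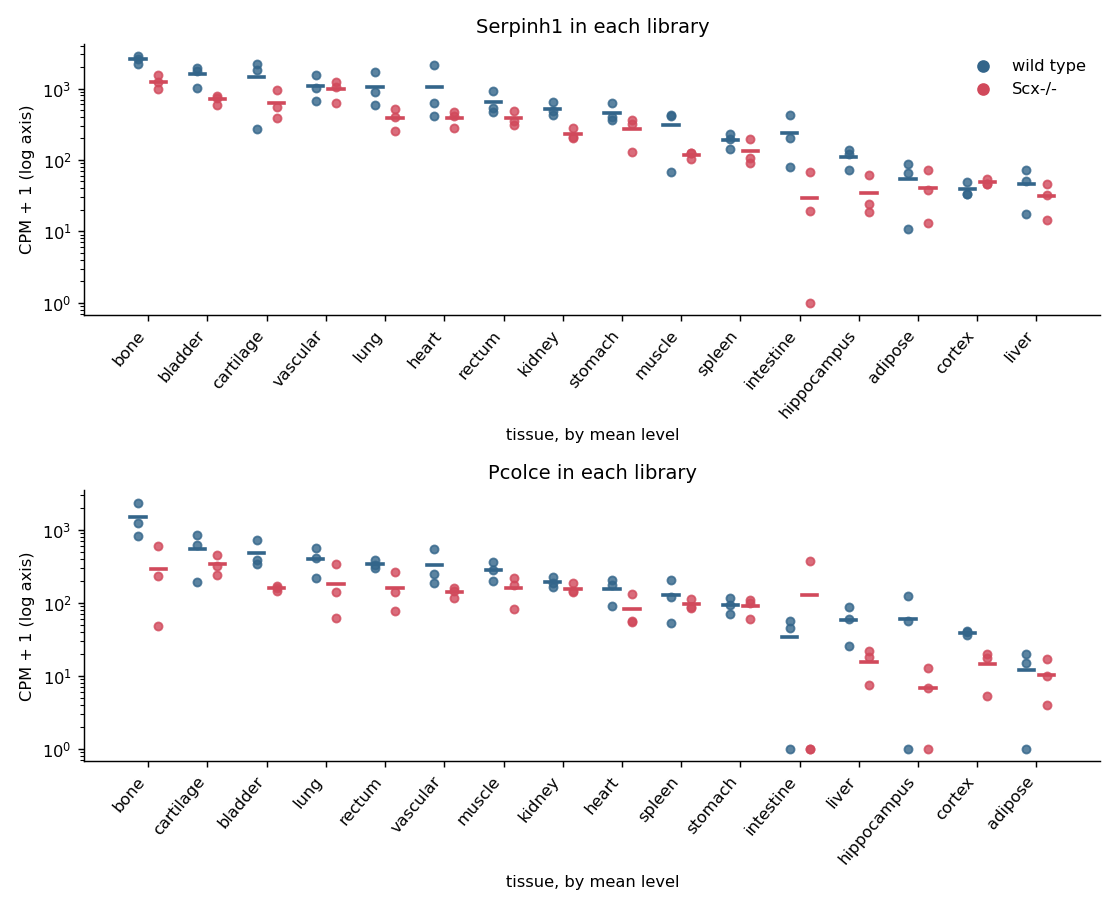
CPM + 1 (log axis) of Serpinh1 (top) and Pcolce (bottom) in each of the 96 libraries, by tissue in order of the mean level, with WT in blue, Scx-/- in red and a line at each group's mean. Each gene has 6 tissues in which the 3 Scx-/- libraries lie below the 3 WT libraries and 0 in which they lie above.

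Pcolce was also called in vascular samples, at 189, 252 and 549.6 CPM in WT and 157, 117 and 145 CPM in Scx-/-, with no overlap (log2 fold change −1.58 ± 0.71, adjusted p = 0.672, 2.48% of genes called lower, median over all genes −0.51). It was −1.03 and not called without WT replicate 3, and it was not called with RLE scaling, library totals or DESeq2. Brown fat genes summed to 7086 to 13148 CPM in WT and 3499 to 6143 CPM in Scx-/- vascular samples, and 3 colonocyte genes to 12.9 to 33.8 CPM and 0 to 6.55 CPM, without overlap, and their part was not tested. The groups did not overlap in 3 further tissues where the thresholds were not passed. These were rectum (326, 301 and 382 CPM against 76.2, 139 and 264 CPM), liver (60.2, 24.5 and 88.2 CPM against 6.51, 17.0 and 20.7 CPM) and cortex (35.0, 38.9 and 40.6 CPM against 4.29, 19.1 and 16.7 CPM, WT first). The log2 fold changes were −0.85 ± 0.83, −1.80 ± 1.08 and −1.46 ± 0.83 in that order. All Scx-/- libraries lay below WT for 319 of 14292 genes in rectum, 479 of 13356 in liver and 611 of 16842 in cortex. In rectum 3 epidermis genes summed to 12 to 27.6 CPM in WT and 3528 to 5959 CPM in Scx-/-, and 5 vessel wall genes to 9726 to 9831 CPM and 1169 to 7748 CPM. The 4 skeletal muscle genes there summed to 202 to 3195 CPM and 4917 to 7401 CPM, 5 fibroblast genes to 2733 to 3163 CPM and 3334 to 4942 CPM, 5 myeloid genes to 0 and 38.1 to 182 CPM, 4 neuron genes to 216 to 281 CPM and 86.7 to 203 CPM, and 3 hepatocyte genes to 212 to 382 CPM and 76.2 to 182 CPM. In liver 3 hepatocyte genes summed to 122265 to 134068 CPM in WT and 93892 to 122027 CPM in Scx-/-, 3 B cell genes to 12.5 to 32.6 CPM and 1.70 to 7.81 CPM, 3 gastric mucosa genes to 194 to 469 CPM and 128 to 187 CPM, and 3 epidermis genes to 0 to 6.23 CPM and 10.2 to 22.4 CPM. None of these lists overlapped between genotypes, and their part in the rectum and liver values was not tested. In cortex all the marker lists overlapped.

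Sparc separated the genotypes without overlap in lung, muscle and heart as well as in bladder and bone. In muscle it was 2959.7, 3093 and 3518 CPM in WT and 2158, 1906 and 1674 CPM in Scx-/- (log2 fold change −0.39 ± 0.39). In lung it was 6609, 6890.4 and 6579 CPM in WT and 5041, 4686 and 3793 CPM in Scx-/- (−0.31 ± 0.24). These differences were small against the spread that the fit assigned to them, and neither was called. All Scx-/- libraries lay below WT for 348 of 13746 genes in lung, 316 of 14532 in muscle and 282 of 12799 in heart.

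The sparse genes gave 2 calls, both in heart, where 2.09% of genes were called lower. P4ha2 was 105, 0 and 32 CPM in WT and 0 in each Scx-/- heart library (adjusted p = 0.738), and 46 of the 55 WT counts came from replicate 1. Lox was 43.2, 889 and 85.2 CPM in WT and 0, 0 and 53.9 CPM in Scx-/- (log2 fold change −3.06 ± 1.23, adjusted p = 0.738). Both overlapped between genotypes, and the P4ha2 call was lost without WT replicate 1 (−4.86 as fitted). The 889 CPM of Lox came from the heart library of 11244 counts, without which the value was −2.0 and not called, nor was it without Scx-/- replicate 1 (−2.46) or 2 (−2.50). In heart 4 cardiomyocyte genes summed to 7471 to 16376 CPM in WT and 17703 to 20839 CPM in Scx-/-, and 4 tenocyte genes to 47.7 to 978 CPM and 0 to 43.1 CPM. There 5 osteoblast genes, Col1a1 among them, summed to 764 to 2401 CPM in WT and 404 to 571 CPM in Scx-/-. The 3 kidney tubule genes summed to 75.0 to 4714 CPM and 27.4 to 56.3 CPM, and 5 myeloid genes to 6.82 to 88.9 CPM and 4.57 to 6.26 CPM. None of these lists overlapped, and their part was not tested. P4ha1, P4hb, Plod2 and Bmp1 were called in 0 tissues, with unadjusted p-values that were never under 0.05. P4hb was negative in 8 and positive in 8 tissues, and in kidney it was 527, 603 and 717 CPM in WT and 637, 559 and 643 CPM in Scx-/-. The 4 pairs in which the Scx-/- libraries all lay above WT were Lox in vascular samples (194, 149 and 261 CPM against 655, 311 and 369 CPM), Bmp1 in rectum and in adipose-labelled libraries, and Plod2 in cortex, and none was called. In the adipose-labelled libraries 5 adipocyte genes summed to 124 to 149 CPM in WT and 5.99 to 27.3 CPM in Scx-/-. The osteoblast (with Col1a1), chondrocyte, skeletal muscle and gastric mucosa lists were also lower and urothelium genes higher. None of these lists overlapped, and their part was not tested.

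A change shared by the tissues was tested in the joint fit of all 96 libraries, as the mean of the 16 tissue effects. Serpinh1 was lower by 46.8% (log2 −0.91 ± 0.155, adjusted p = 2.08e-05) and Pcolce by 48.6% (−0.96 ± 0.22, adjusted p = 0.0210), while Sparc (−0.24 ± 0.10, adjusted p = 0.861) and P4hb (−0.08 ± 0.13) were not called. Serpinh1 ranked 7th and Pcolce 15th of 13459 genes by p, and 0.0817% of these genes were called lower. Many of these genes had an SE too large for a call, such as Hspb1 at rank 5081 (SE 893, unadjusted p = 0.9997). Genes of a higher rank number had a p at least as high, so the ranks and the share are set against them too. The 5 genes with a group at 0 were taken from an additive model of tissue and genotype, in which P4ha1 (−0.30), P4ha2 (−0.46), Plod2 (−0.56), Bmp1 (0.05) and Lox (−0.27) were not called. The additive model gave −0.84 for Serpinh1 (adjusted p = 3.72e-05) and −0.99 for Pcolce (adjusted p = 0.000191), with 0.201% of genes called lower. Leaving out the 3 doubtful cartilage libraries gave −0.83 and −1.03 there. In the mean over tissues (edgeR), Pcolce was no longer called without bladder (adjusted p = 0.0668), bone (0.0724), hippocampus (0.127), liver (0.0635) or vascular samples (0.0648). It stayed called without any other single tissue and, at −1.02 (adjusted p = 0.000495), without vascular and adipose-labelled samples together. Without replicate 2 or 3 of both genotypes in all tissues Serpinh1 was not called (0.0848 and 0.0769), and Pcolce was not called without replicate 1, 2 or 3 (0.385, 0.372 and 0.373).

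The libraries with 1 genotype and replicate number appear to come from 1 animal, because Hbb-bs was read in all 16 libraries of WT replicate 2 (296 to 50719 CPM) and with at most 32 counts in all the libraries of any other genotype and number. The p-values of the joint fit then treat tissues of 1 animal as independent. With 1 mean of log2(CPM + 1) over the 16 tissues for each of the 6 presumed animals, Serpinh1 was 7.96, 8.53 and 8.64 in WT and 7.67, 7.26 and 7.17 in Scx-/-. Pcolce was 6.64, 6.92 and 7.29 in WT and 5.56, 5.71 and 6.38 in Scx-/-. Sparc was 11.19, 11.34 and 11.44 in WT and 11.17, 10.88 and 10.84 in Scx-/-, and Lox was 5.42, 5.50 and 5.46 against 5.03, 3.85 and 5.32. These 4 of the 9 genes had the Scx-/- animals all below the WT animals, as had 4.9% of all genes. The exact permutation p was 0.1 for each, which is the smallest that 3 against 3 can give. In limma over all genes the differences were −1.01 for Serpinh1 (adjusted p = 0.195), −1.07 for Pcolce (adjusted p = 0.416) and −0.36 for Sparc (adjusted p = 0.425). No gene of 13459 reached an adjusted p under 0.05 there, and 917 had an unadjusted p under 0.05. The same 4 genes did not overlap when bone and cartilage were left out of the means, beside 5.18% of all genes.

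**Figure D5:**
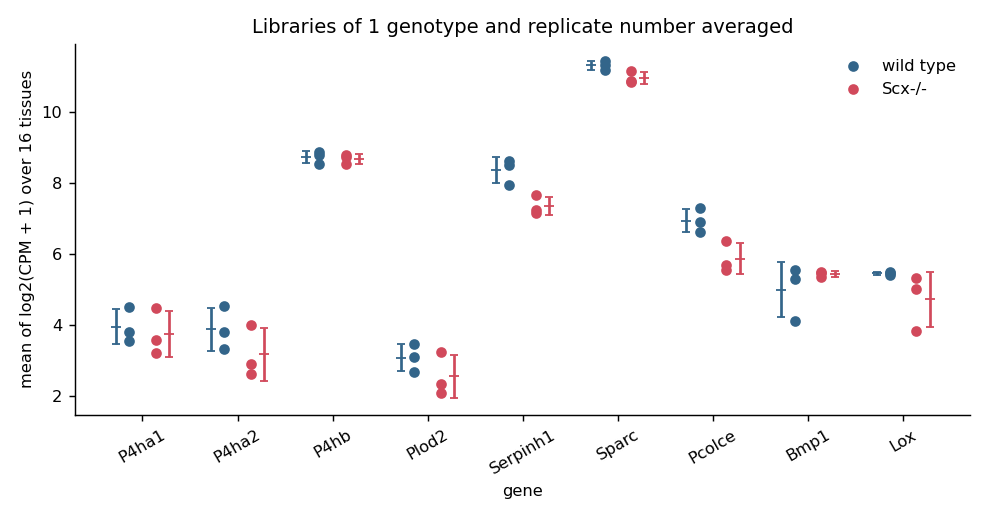
Mean log2(CPM + 1) over the 16 tissues for each genotype and replicate number, 1 point each, for the 9 genes tested, with WT in blue, Scx-/- in red and the mean and SD of the 3 points beside them. The 3 Scx-/- points of Serpinh1, Sparc, Pcolce and Lox lie below the 3 WT points, and for Sparc the nearest points of the 2 genotypes almost touch (11.17 and 11.19).

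Whether the genotype difference varied between tissues was tested as an interaction over the 16 tissues. None of the 9 genes was called by edgeR's quasi-likelihood test (lowest adjusted p 0.868, for P4ha1, with 0.916 for Serpinh1 and 0.907 for Pcolce, and none with an unadjusted p under 0.05), beside 0.0669% of all genes. The tissues in which a gene was called are therefore not shown to differ from those in which it was not.

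The proximal promoters of Serpinh1 and Pcolce are shown because these 2 genes were called lower over the tissues and because Scx belongs to the factors that bind E-boxes (CANNTG). Both are RefSeq sequences of GRCm38.p6, minus strand, from 250 bases before to 50 bases after the transcript start, with every E-box in capitals. Serpinh1 lies at chr7:99353190-99353489 and Pcolce at chr5:137611355-137611654, which for Pcolce is inside the longer span of the other annotation given above.
Serpinh1: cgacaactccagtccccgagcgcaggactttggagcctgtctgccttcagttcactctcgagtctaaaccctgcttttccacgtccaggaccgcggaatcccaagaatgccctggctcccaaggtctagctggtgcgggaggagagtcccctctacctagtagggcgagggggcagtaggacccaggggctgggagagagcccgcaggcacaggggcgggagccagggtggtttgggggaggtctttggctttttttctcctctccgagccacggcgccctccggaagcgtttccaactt
Pcolce: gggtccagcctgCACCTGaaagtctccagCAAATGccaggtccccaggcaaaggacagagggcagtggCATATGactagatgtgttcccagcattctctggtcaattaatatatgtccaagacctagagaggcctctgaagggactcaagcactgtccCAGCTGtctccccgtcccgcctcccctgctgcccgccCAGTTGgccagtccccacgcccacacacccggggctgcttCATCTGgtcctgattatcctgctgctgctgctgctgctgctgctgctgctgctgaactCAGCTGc
Serpinh1 had 0 E-boxes in this window and Pcolce had 7, of which 1 read CATCTG. Of the 10 genes, 7 had a promoter in the reference table: Sparc had 3 E-boxes and Plod1 2, and P4ha1, P4ha2 and P4hb had 0. Among all 32851 promoters of the same length, 72.3% held CANNTG on either strand and 17.2% held CATCTG or its complement CAGATG, which is 1 form of CANNTG. A heat shock element core (GAANNTTC) was found in 7.86% of all promoters and in neither of these 2. A match of letters is not a binding site, and no binding data were analysed here.

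Genes near these 2 on their chromosomes were examined as well. Within 5 Mb of Serpinh1, 81 genes were tested for the mean over tissues and 1 was called, Hbb-bs, which lies at 103826534 to 103828096 on chromosome 7 and is the globin gene that marks WT replicate 2. Within 5 Mb of Pcolce, 119 genes were tested and 0 were called (edgeR, adjusted p).

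Of the chains of fibrillar collagen, the substrates of these proteins, 7 were tested in bladder and 3 passed an adjusted p. Col3a1 (−1.05, adjusted p = 7.86e-05), Col1a2 (−0.97, adjusted p = 0.000230) and Col1a1 (−0.96, adjusted p = 0.000146) fell. Over the mean of the tissues Col1a1 was called lower as well (−0.65, adjusted p = 1.81e-05) and Col1a2 was not (−0.50, adjusted p = 0.164), nor was Col3a1 (−0.46, adjusted p = 0.141), which was called in the additive model (−0.45, adjusted p = 0.0324). These fits treat tissues of 1 presumed animal as independent. With means per animal in limma, the adjusted p was 0.146 for Col1a1, 0.290 for Col1a2 and 0.440 for Col3a1, none of them called. Of the 8 chains taken as substrates (Col1a1, Col1a2, Col2a1, Col3a1, Col5a1, Col5a2, Col11a1 and Col11a2), 7 of 103 pairs of a gene and a tissue were called lower (6.80%, beside 1.85% of all pairs) and 0 higher at the study's thresholds. Of all pairs on this list, 3 had an adjusted p under 0.05, the 3 in bladder, beside 0.0914% of all pairs. In muscle Col2a1 was called (−7.43 as fitted), and Col1a1 and Col1a2 (−1.0 each, just under 2-fold) were not. From these libraries the study, with DESeq2, had named Col1a1, Col1a2 and Col2a1 as lower in muscle, and Col1a1 and Col1a2 in heart. Those directions are therefore not independent of that choice. In heart Col1a1 was at −1.09, Col1a2 at −0.99 and Col3a1 at −0.61, and in the cartilage libraries Col5a2 was at −0.98, Col5a1 at −0.90 and Col3a1 at −0.70, none of them called. In bone Col5a2 was at −0.75, Col3a1 at −0.42 and Col1a2 at −0.21, also not called. The 8 chains summed to 108462 to 122000 CPM in WT and 86156 to 108254 CPM in Scx-/- bone, without overlap and with no test.

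Relative to type I collagen, Serpinh1 was read 7.16 times per 100 counts of Col1a1 and Col1a2 in WT bladder and 6.19 times in Scx-/- bladder. In bone it was 2.39 and 1.43, in kidney 53.4 and 38.3, in lung 31.7 and 20 and in muscle 4.48 and 3.12. It was higher in Scx-/- in 5 of the 16 tissues, in heart (29.7 and 39.1), vascular samples (12 and 16.4), cortex (24 and 30.4), adipose-labelled libraries (7.39 and 11.3) and liver (16.2 and 17.8). Pcolce was read 2.16 times in WT and 1.38 times in Scx-/- bladder and 1.23 and 0.461 times in bone, but 20.1 and 25.1 times in kidney, and it was higher in Scx-/- in 6 of the 16 tissues. Sparc stood at 45.7 and 46.7 in bladder and was higher in Scx-/- in 13 of the 16 tissues, among them kidney (152 and 221) and cartilage (31.2 and 44.1), and lower in bone (24.9 and 20.4), lung (284 and 254) and rectum (52.9 and 42.9). These ratios of pooled counts were not tested.

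The other genes of collagen biosynthesis gave as many calls in one direction as in the other over the 16 tissues, and in bone 0 of the 25 tested were called while 21 were negative, beside 48.5% of all genes. Their summed level was 3564 to 4159 CPM in WT and 1675 to 2437 CPM in Scx-/- bone, and 2065 to 3252 CPM and 1249 to 2025 CPM in lung, without overlap in either, with no test. Of 26 such genes, 351 pairs of a gene and a tissue were tested, 5 were called lower (1.42%, beside 1.85%), 5 were called higher and 0 had an adjusted p under 0.05. In muscle P4ha3, another catalytic subunit of prolyl 4-hydroxylase, was at −6.45 as fitted, Colgalt2, a collagen galactosyltransferase, was at 5.78, and Ppib, a prolyl isomerase of the collagen-folding machinery, was at −1.15. In bone Colgalt2 was at −5.26, the procollagen protease Tll1 at −4.83 and Colgalt1 at −2.09. In cartilage Loxl1 was at −1.11, P4ha3 at 4.30 and P3h4 at −1.34, and in heart Loxl4 was at 4.72, P4ha3 at −4.21 and Adamts14 at −4.19. Of these, P4ha3 and Colgalt2 in muscle were called, and the large fitted values belong to genes with few counts. Of 8 genes of collagen breakdown, 4 of 111 pairs were called lower (3.60%, beside 1.85%) and 1 higher. The 8 genes summed to 4731 to 7879 CPM in WT and 3959 to 4684 CPM in Scx-/- bone, without overlap and with no test. The inhibitor Timp1 was called lower in bone (−1.97) and heart (−7.25 as fitted) and the collagenolytic protease Ctsk higher in heart (5.66 as fitted). The other named genes were not called: Mmp2 (−1.07) and Mmp13 (−0.80) in bone, Mmp2 (1.11), Timp1 (−0.79) and Ctsk (−0.44) in muscle, Timp2 (0.61) in heart, and Ctsk (−0.46), Timp2 (−0.32) and Mrc2 (−0.48) in cartilage. Since Serpinh1 is also a heat shock gene, 10 other heat shock genes were counted after the results were seen, and 9 of 128 pairs (7.03%, beside the 1.85% of all pairs given above) were called lower, 0 higher and 0 at an adjusted p. In the additive model Hsph1 of that list was called lower over the tissues (−0.89, edgeR, adjusted p = 0.0142). That fit also treats tissues of 1 presumed animal as independent, and no gene reached an adjusted p under 0.05 with means per animal in limma.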

How the data were processed

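Total RNA from snap-frozen organs was made into pooled, barcoded libraries, 3′-enriched by the study's methods and smart-seq2 based by the series' own text, and the authors mapped the reads with Bowtie2 to mm10 and ran HTSeq to obtain the deposited table of raw counts, which was not normalized. Versions, gene annotation and strand setting are not stated. Each column was matched to its sample by name, and 0 columns were unused. The 10 genes, the gene lists and the tests were chosen with earlier results of these data known.

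Counts were tested with edgeR 4.0.16 (R 4.3.3; TMM scaling, robust quasi-likelihood test, two-sided), per tissue with 3 against 3 libraries after removal of genes at 0 in all 6, and jointly over 32 groups. A pair was called at the study's thresholds (p under 0.05 before adjustment and more than 2-fold), or at a Benjamini-Hochberg adjusted p under 0.05. Alternatives were RLE scaling, library totals, filterByExpr, no filter, DESeq2 1.42.0, the replicate block and leaving out libraries. The additive model, means per animal in limma 3.58.1, sex terms, leaving out tissues or the 3 doubtful cartilage libraries, and the heat shock list were added after the data were seen. Levels and likeness used log2(CPM + 1). Figures and exact tests used Python 3.11.15 with scipy 1.17.1. The count tests were tested on simulated data.

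All 10 genes were named. From each list, genes with an adjusted p under 0.05 in any tissue and up to 3 per list with the lowest unadjusted p in muscle, heart, bone and cartilage were named. Libraries of one group are taken as replicates. No label says that they came from separate mice, but globin and sex-linked counts set the 3 replicate numbers of each genotype apart, with the exceptions named above. Of 96 replicate pairs, none agreed within sampling noise. Intervals and the limit of 3 counts for a count of 0 cover counting error only.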

Additional observations from a re-analysis of the deposited data

How the results depend on the processing

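At the study's thresholds 11 pairs of a gene and a tissue were called, 8 to 12 when each replicate was left out in turn and 8 to 15 with other scalings, filters, DESeq2, the joint fit or without libraries under 50000 counts. At an adjusted p, 4 pairs were called, 1 to 6 when each replicate was left out, and 0 with filterByExpr or in the joint fit over 32 groups. The 2 genes called for the mean over tissues became 0 to 1 when a replicate number was left out and 1 without bladder, bone, hippocampus, liver or vascular samples (1 to 2 over all tissues left out). They became 0 with means per animal, also with sex as a term and also without bone and cartilage. By sex-linked counts WT replicates 1 and 3 and Scx-/- replicate 1 were female. WT replicate 2 and Scx-/- replicates 2 and 3 were male, so sex was not balanced between genotypes. In the additive model with sex as a term (edgeR), Serpinh1 (−0.83, adjusted p = 7.43e-05) and Pcolce (−0.97, adjusted p = 0.000963) stayed called. No called value changed sign. Uncalled values near 0 did: for P4hb (−0.08) the mean over tissues was 0.02 without replicate 2, and its additive-model value (−0.07) was 0.02 without WT replicate 1 and 0.01 without Scx-/- replicate 2, where the additive-model value of Lox (−0.27) was 0.02. Calls for the interaction stayed at 0, genes higher in bone at 6 to 7 of 9, pairs higher in a tissue at 33 to 44, and tissues with a pooled P4ha1 share over 50% of P4ha1 and P4ha2 counts (9 of 16) at 7 to 11. Bone Serpinh1, not called, was called with RLE scaling (−1.06), DESeq2 (−1.06), library totals (−1.03) and without Scx-/- replicate 1 (−1.20). Both calls of the sparse genes, in heart, were lost when single libraries were left out, and the part of depth in them was not tested.

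With the replicate number as a block, 7 pairs were called at the study's thresholds in place of 11, and 4 at an adjusted p. The pairs no longer called were Serpinh1 in cartilage (−0.92), intestine (−3.51), lung (−1.07) and muscle (−0.86) and Pcolce in vascular samples (−1.48), and P4ha1 in kidney was called instead. The numbers did not pair the genotypes: same-numbered WT and Scx-/- libraries of a tissue correlated in their deviations from the group means at −0.127 to 0.0411 (median −0.000902), and 0 of 48 pairs were above 0.1.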
